A study of Mus musculus with 9 samples.

Results

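NKT-like CXCR6 T cells of the mouse liver were taken from a single-cell RNA-seq table as the cells that carried transcripts of the CD3 complex together with Cxcr6, Il4 or Zbtb16. A cell was a member when it had 200 or more detected genes, 2 or more UMIs (unique molecular identifiers, each standing for 1 captured RNA molecule) summed over Cd3d, Cd3e and Cd3g, 1 or more UMIs summed over Cxcr6, Il4 and Zbtb16, 0 UMIs of Cd8b1 and Cd79a, and under 5 UMIs summed over C1qa, C1qb and C1qc. The rule also asked for 0 UMIs of Trdc, but the constant genes of the T-cell receptor were not analysed here, so that condition removed no cell and gamma-delta T cells may be among the members. The rule was met by 773 of 8527 cells with 200 or more genes (9.07%), out of 8562 cells in all, and by 46.0% of the 1679 cells that passed the CD3, Cd79a and C1q criteria and are called T cells. The other T cells were 511 Cd8b1-negative cells without any UMI of the 3 entry genes and 395 cells with Cd8b1, called CD8 T cells.

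The livers came from C57BL/6 mice and were digested with collagenase, and the cells were profiled by droplet-based 3' sequencing. All mice carried the doxycycline-dependent transactivator rtTA with an EGFP reporter at ROSA26 (ROSA26-rtTA-IRES-EGFP). According to the study's methods, rtTA is unlocked by a Cre recombinase driven by the albumin promoter, which is active in hepatocytes, so T cells were not the cells meant to express the transgene. The genotype "ROSA26-rtTA-IRES-EGFP; WT" with doxycycline food for 7 days gave 2 libraries (WT), and "ROSA26-rtTA-IRES-EGFP; tetYAP", which adds a tet-driven YAP carrying an activating mutation, gave 4 libraries after 3 days of doxycycline food (YAP3d) and 3 libraries after 7 days (YAP7d). WT and YAP7d therefore shared the length of feeding, whereas YAP3d and WT differed in it as well as in genotype. The labels number the libraries but do not tie each to a separate animal, so the p-values measure the spread between libraries, which may in part be technical.

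Natural killer T (NKT) cells are T cells that combine a T-cell receptor with receptors of natural killer cells. The invariant kind recognises lipids presented by CD1d, depends on the transcription factor PLZF (encoded by Zbtb16), and leaves the thymus ready to make cytokines such as interleukin 4 and interferon gamma within hours of stimulation. They are abundant in the mouse liver, where the chemokine receptor CXCR6 holds them in the sinusoids by binding CXCL16, and CD40 ligand on their surface lets them activate antigen-presenting cells. CXCR6 is also carried by other tissue-resident T cells and by type 1 innate lymphoid cells, so the gene alone does not define the type.

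Libraries held 293 to 2554 cells, and the members numbered 69 and 165 in WT, 71, 62, 68 and 222 in YAP3d, and 51, 21 and 44 in YAP7d. The labels name v2 and v3 reagent kits, and the study's methods give v2 for the whole-liver libraries, to which all 9 belong by their titles. The smallest UMI count of any cell was 822 at the lowest (YAP3d replicate 1) and 4041 at the highest (YAP7d replicate 3), so the libraries differed in how shallow a cell could be and still be counted. Members had a median of 4534 to 4930 UMIs in WT and YAP3d libraries and of 5261 to 6703 UMIs in YAP7d libraries, and a median of 2.07% to 2.504% mitochondrial UMIs. Barcodes found in more than 1 library numbered 46 among all cells. Of the members, 8 had a barcode that also occurred in another library, and 0 barcodes were shared between members. Scrublet called 4 members doublets (60 cells in all, 0.704%). WT replicate 2, YAP3d replicate 4 and YAP7d replicate 3, the 3 libraries with over 1000 cells, had the 3 lowest values on the second principal component of the members' summed counts (-12.3, -15.8 and -33.5, against 1.30 to 16.5 in the other libraries). The pseudogene transcript Gm10709 had 47 to 252 UMIs in the members of YAP3d replicates 1 and 2 and of all YAP7d libraries, but at most 9 in the other 4 libraries.

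Most members entered through Cxcr6. Any UMI of Cxcr6 (chemokine receptor; a protein-coding gene on chromosome 9, from 123806477 to 123811754 in GRCm38.p6) was seen in 734 members (95%), of Il4 (interleukin 4; chromosome 11, 53612460 to 53618665) in 326 (42.2%), and of Zbtb16 (PLZF; chromosome 9, 48651797 to 48836225) in 178 (23.03%). Cxcr6 was the only entry gene in 365 members and came with Il4 in 206, with Zbtb16 in 74 and with both in 89. Il4 alone let in 24 cells, Zbtb16 alone 8, and these 2 genes without Cxcr6 another 7. In the members' summed counts, Cxcr6 reached 882 and 696 CPM in WT, 902, 923, 875 and 654 CPM in YAP3d and 492, 566 and 276 CPM in YAP7d (CPM, the UMIs of a gene scaled to a common library total). Il4 reached 109 and 178 CPM in WT, 216, 116, 321 and 189 CPM in YAP3d and 109, 58.3 and 120.1 CPM in YAP7d, and Zbtb16 reached 63.6 and 47.4 CPM in WT, 85.0, 76.3, 66.8 and 58.2 CPM in YAP3d and 55.8, 66.6 and 12.98 CPM in YAP7d. These levels are a description, since the cells were chosen on them. Cxcr6 was lower in each YAP7d library than in any other library, while Il4 and Zbtb16 overlapped between the groups.

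The members were also described by genes that the rule did not use. Of these, Cd40lg and Icos were picked as markers with earlier results of these data known, so they are no independent check of the label. Klrb1c, which encodes the NK1.1 receptor, was detected in 53.4% of members, in 16.4% of the other Cd8b1-negative T cells and in 8.61% of CD8 T cells, against 3.59% of 1506 B cells, which should lack it (median 4873, 4353, 5199 and 3682 UMIs per cell). Cd40lg, the ligand of CD40, was found in 56.7% of members, 29.9% of the other Cd8b1-negative T cells, 8.35% of CD8 T cells and 0.332% of B cells. Icos, a costimulatory receptor, was found in 53.2%, 24.1%, 28.1% and 2.79% of the same sets. After each cell had been thinned to 1500 UMIs, Klrb1c was present in 26.4% ± 7.57 of members (SD, n = 9 libraries) and in 11.2% ± 8.03 of the other Cd8b1-negative T cells, and Cd40lg in 28.7% ± 9.97 and 21.1% ± 9.59. At equal depth the mean of Klrb1c in members was thus more than 1 SD above the other cells, while that of Cd40lg was less than 1 SD above. The invariant receptor chains themselves were not analysed here, so the cells are called NKT-like by their transcripts and not by their receptor.

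Other cell types were looked for in the same way. Foxp3, the factor of regulatory T cells, had a UMI in 0 of 773 members, which allows a share of up to 0.388% with a UMI. Il17a, which encodes interleukin 17A, was seen in 12 members, at 0 and 0 CPM in WT, 0, 149, 0 and 34.0 CPM in YAP3d and 2.53, 25.0 and 0 CPM in YAP7d. Of further genes of gamma-delta T cells, Sox13 was seen in 1.29% of members and 0 of the 511 other Cd8b1-negative T cells, which allows a share of up to 0.587%, Cd163l1 in 1.68% and 0.391%, and Blk, which B cells also express (22.3%), in 2.85% and 1.17%. Eomes, which marks conventional natural killer cells, was seen in 1.29% of members and 1.59% of B cells. Ncr1, a natural killer and innate lymphoid receptor, was seen in 7.89% of members against 3.52% of B cells. The B-cell markers summed to 6.54 to 178 CPM over the 9 libraries, and naive T-cell markers to 285 to 814 CPM. Cells just outside the rule were described without a test. The 25 cells kept out by a single Cd8b1 UMI carried Klrb1c in 60% and Cd40lg in 60%, whereas all 98 cells kept out by Cd8b1 carried them in 19.4% and 18.4%. The 132 cells kept out by any Cd79a UMI carried them in 53.0% and 53.0%. Of the 122 members with exactly 1 UMI of the entry genes, 43.4% carried Klrb1c, against 56.1% of the 508 members with 3 or more.

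Compared with the other Cd8b1-negative T cells of the same library, members had higher levels of most listed NKT1-type genes and lower levels of the listed naive T-cell markers. Of 18 tested homing and residence genes, 7 were higher and 6 lower. Of 3574 genes tested with edgeR's quasi-likelihood test with the library as a block, 717 (20.1%) passed a Benjamini-Hochberg adjusted p of 0.05, 330 (9.23%) higher and 387 (10.8%) lower in members. These counts describe what accompanied Cxcr6, Il4 and Zbtb16, because the split was made on the counts of the same cells and the members were the deeper set. With every cell thinned to 1500 UMIs and the rule applied again, 224 of 838 genes passed. Values are given as means ± SD of CPM over the 9 libraries, members first.

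Among the 10 named genes with the largest rises, Socs2, an inhibitor of cytokine signalling, stood at 176 ± 60.7 CPM against 28.0 ± 17.3 CPM. Tnfsf14, the TNF ligand LIGHT, stood at 73.4 ± 25.1 CPM against 8.32 ± 5.19 CPM, and Cd226, an activating receptor of natural killer cells and T cells, at 199 ± 51.7 CPM against 35.7 ± 18.9 CPM. Id2, which restrains E proteins in innate-like and effector lymphocytes, stood at 1598 ± 365 CPM against 414 ± 120.0 CPM. P2rx7, an ATP-gated channel, Podnl1, Rcbtb2, Gm19585, the protease gene Mmp9 and Ifng completed the 10. Ifng (interferon gamma) stood at 442 ± 275 CPM against 83.7 ± 64.7 CPM, a log2 fold change of 2.104 ± 0.25 (SE).

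The named genes with the largest falls included Dapl1, Ccr7, Nsg2, Il6ra, Igfbp4, Actn1, S1pr1, Cmah and Tcf7. Ccr7, the receptor that guides cells into lymph nodes, stood at 10.3 ± 14.4 CPM in members and 317 ± 101 CPM in the other cells. S1pr1, the receptor for exit from tissue, stood at 24.5 ± 16.4 CPM against 233 ± 67.1 CPM, and Tcf7, a factor of naive and memory T cells, at 42.1 ± 17.6 CPM against 305 ± 105 CPM. In each of the 9 libraries every one of these genes was lower in members. All 8 tested naive T-cell markers were lower, with a median log2 fold change of -3.29, beside 0.01 over all genes tested.

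Genes of the interferon gamma-making NKT1 type were mostly higher. Of 13 tested genes, 11 were higher and 0 lower in members, with a median log2 fold change of 1.28. Tbx21, the factor T-bet that directs this type, stood at 91.1 ± 19.2 CPM against 31.3 ± 18.2 CPM, Il2rb, the receptor chain for interleukins 2 and 15, at 429 ± 90.7 CPM against 147 ± 62.5 CPM, and Cxcr3 at 288 ± 82.4 CPM against 92.4 ± 52.1 CPM. Gata3, the factor of the interleukin 4-making type, was also higher, at 107 ± 25.6 CPM against 58.0 ± 33.9 CPM. Of 17 tested genes for natural killer receptors, 9 were higher and 2 lower. Of 7 tested cytokines and TNF ligands, 5 were higher (Cd40lg, Tnf, Fasl, Ifng and Tnfsf14), and of 8 cytotoxic effectors 5 were higher and 0 lower. Gzmb stood at 945 ± 242 CPM against 371 ± 327 CPM. Gzma did not pass, at 822 ± 584 CPM against 709 ± 616 CPM.

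Against the CD8 T cells, which could be compared in 7 libraries with 10 or more cells of both sets, 587 of 3500 genes (16.8%) passed the same test, 287 (8.2%) higher and 300 (8.57%) lower in members. Klrb1c had a log2 fold change of 2.81 ± 0.32 (SE), Cd40lg of 2.70 ± 0.22 and Xcl1, the chemokine that attracts cross-presenting dendritic cells, of 2.43 ± 0.38, beside Tnfsf14, Socs2, Klra9, P2rx7, Rora, Fgl2 and Asb2. Nkg7, a granule protein of cytotoxic cells, was not past the threshold, at 1922 ± 300.4 CPM in members and 1547 ± 941 CPM in CD8 T cells over the 9 libraries. Cd8a, 5730508B09Rik, Fam169b, Dapl1, Ccr7, Nsg2, Actn1, Cmah and Tcf7 were among the named genes lower in members.

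**Figure D1:**
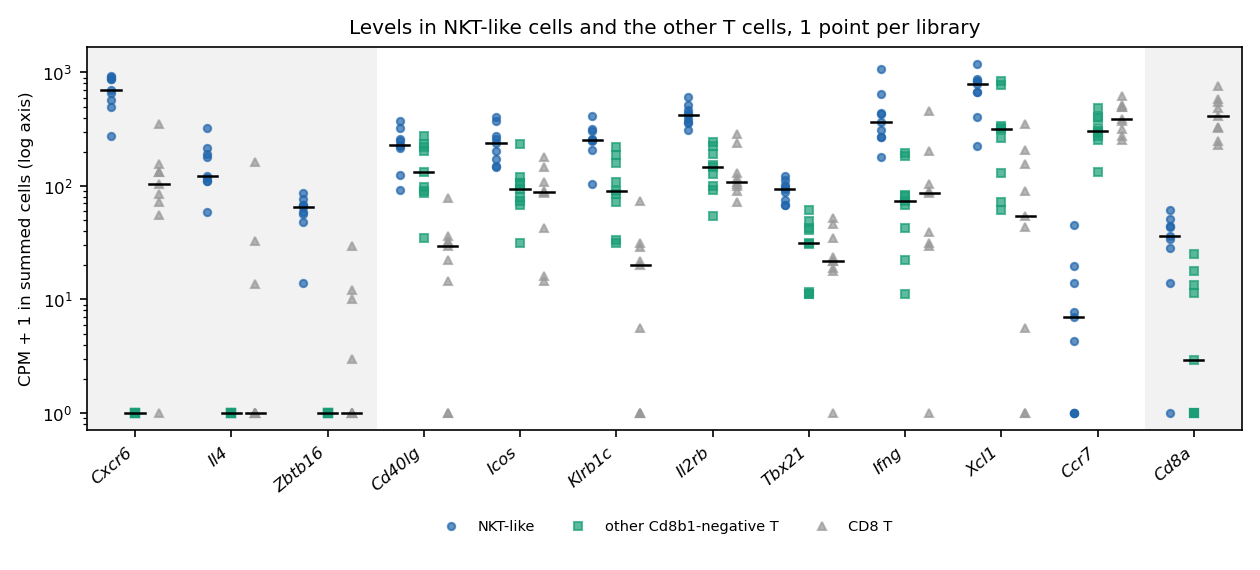
CPM plus 1 (log axis) of 12 genes in the summed cells of each library, for members (circles), the other Cd8b1-negative T cells (squares) and CD8 T cells (triangles), with the median over 9 libraries as a bar. Grey panels hold genes used by the rule or bound to it; outside them the members sit highest for Tbx21 and Il2rb and lowest for Ccr7.

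The members were not uniform. Cells with and without an Il4 UMI were set side by side within 8 libraries (320 and 432 cells; YAP7d replicate 2 had under 10 cells with Il4), over 176 genes of the gene lists at 50 CPM or more. This split was chosen after its values were seen and uses a gene of the rule, so it is given without a test. Of the 176 genes, 24 were lower with Il4 in all 8 libraries and 9 were higher in all 8. Of 17 natural killer receptor genes, 12 were lower and 1, Cd226, was higher in all 8, and of 8 cytotoxic effectors 3 were lower and 0 higher in all 8, while Nkg7 was lower in 6 and Srgn, which encodes a granule proteoglycan, higher in 6. Gzma (granzyme A) stood at 25.0 ± 31.0 CPM with Il4 and 1556 ± 770 CPM without (SD, n = 8 libraries). Gzmb (granzyme B) stood at 423 ± 157 CPM with Il4 and 1334 ± 292 CPM without. Ncr1 stood at 1.02 ± 2.88 and 90.0 ± 47.6 CPM, the signalling adaptor Fcer1g at 97.0 ± 70.7 and 714 ± 211 CPM, and its partner Tyrobp at 103 ± 95.7 and 569 ± 233 CPM. The chemokines Ccl3, Ccl4 and Ccl5 followed, with Ccl4 at 91.8 ± 77.5 and 980 ± 549 CPM.

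Genes higher with Il4 in all 8 libraries included Cd40lg, at 307 ± 96.9 CPM with and 179 ± 79.9 CPM without Il4, and Izumo1r, the folate receptor 4, at 132 ± 26.6 and 59.5 ± 14.7 CPM. Maf, a factor that promotes Il4 transcription, stood at 152 ± 47.6 and 110 ± 49.2 CPM. Ifng was higher with Il4 in 7 of 8 libraries, at 703 ± 639 and 281 ± 138 CPM, and Cd4 in 7 of 8, at 64.7 ± 25.2 and 30.4 ± 11.4 CPM. At an equal depth of 1500 UMIs, a Gzmb UMI was present in 22.5% ± 14.1 of members with Il4 and in 41.1% ± 8.29 of those without (SD, n = 9 libraries), and was rarer with Il4 in 9 of 9 libraries. At that depth Ifng was found in 25.0% ± 14.8 and 29.0% ± 10.4, with Il4 ahead in only 4 of 9 libraries, so its lead in CPM was not seen in the share of cells. A member without an Il4 UMI may still express the gene. Markers of other cells moved with the split. Cd8a stood at 1.93 ± 2.72 CPM with Il4 and 66.0 ± 28.3 CPM without (SD, n = 8 libraries) and was lower with Il4 in all 8 libraries. So were 4 of 5 natural killer or type 1 innate lymphoid markers. Ccl5, which is listed with Cd8a, was also lower in all 8, but it was found in 88.7% of members and 61.5% of CD8 T cells. It therefore does not set CD8 T cells apart from members. The part of other cell types in the split was not tested.

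The share of members was compared to see how the liver's NKT-like population stood after YAP induction in hepatocytes. Members made up 13.2% and 11.7% of the cells in WT, 25.3%, 14.0%, 16.1% and 8.70% in YAP3d, and 8.51%, 4.56% and 2.40% in YAP7d. The 3 YAP7d libraries lay below every other library, the closest pair being 8.51% (95% Clopper-Pearson interval 6.40 to 11.04%) and 8.70% (7.64 to 9.86%), whose intervals overlapped. The means were 12.4% ± 1.13 over the 2 WT libraries, 16.0% ± 6.90 over the 4 YAP3d libraries and 5.16% ± 3.102 over the 3 YAP7d libraries (SD). None of the 8 exact two-sided permutation tests over libraries passed after Benjamini-Hochberg adjustment over the 8. YAP7d minus YAP3d was -10.9 points (exact permutation p = 0.0571, adjusted 0.349), YAP7d minus WT was -7.29 points (exact permutation p = 0.2, adjusted 0.373), where 2 against 3 libraries cannot go below 0.1, and YAP3d minus WT was 3.58 points (exact permutation p = 0.6, adjusted 0.686). Without YAP3d replicate 1 the YAP3d minus WT difference was 0.4996 points. The comparison over all 3 groups gave an exact permutation p of 0.0873, adjusted 0.349.

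As a share of T cells, members made up 66.3% and 43.9% in WT, 81.6%, 49.2%, 64.8% and 42.3% in YAP3d, and 48.6%, 37.5% and 22.6% in YAP7d. Here the groups overlapped. The means were 55.1% ± 15.9, 59.5% ± 17.5 and 36.2% ± 13.1, and YAP7d minus WT was -18.9 points (exact permutation p = 0.3, adjusted 0.4). That difference was -7.67 points without WT replicate 1 and -30.1 points without WT replicate 2. T cells as a whole made up 23.3% ± 4.66 of cells in WT, 26.2% ± 4.52 in YAP3d and 13.4% ± 3.62 in YAP7d. In each group the lowest share of T cells belonged to the library with over 1000 cells (43.9%, 42.3% and 22.6%). A share says nothing of absolute numbers, and the lowest cell depth counted differed between libraries. With cells thinned to 1500 UMIs and the rule reapplied, YAP7d minus YAP3d was -10.2 points of all cells and -25.4 points of T cells.

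**Figure D2:**
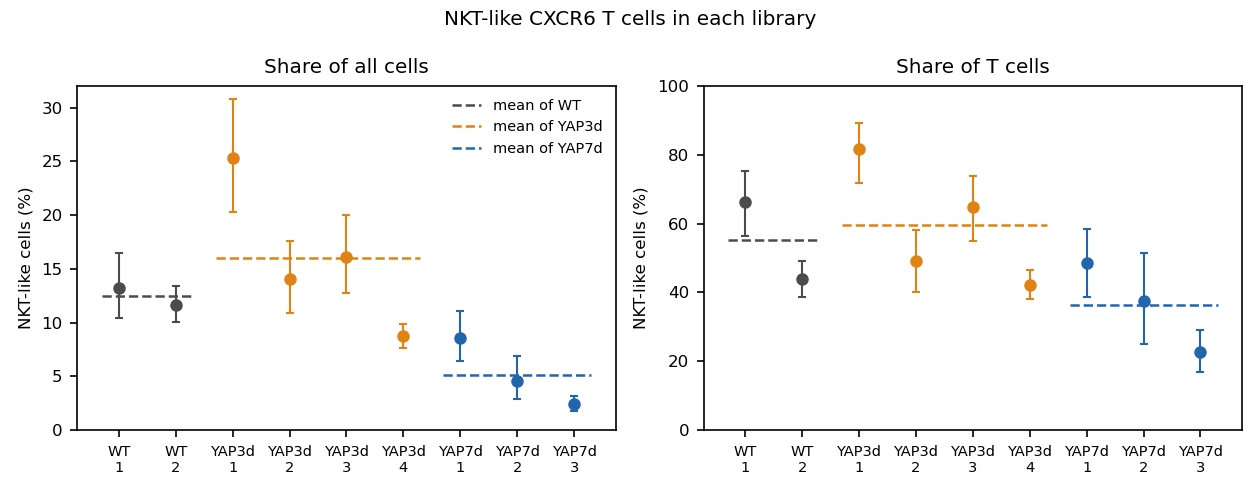
Members as a percent of all cells with 200 or more genes (left) and of T cells (right), 1 point per library with its 95% Clopper-Pearson interval (counting error only) and the group mean as a dashed line. The 3 YAP7d libraries lie between 2.40% and 8.51% of all cells, and YAP3d spreads from 8.70% to 25.3%.

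Within the members, the transcripts that rose in YAP7d included 25 listed proliferation genes among 112 genes higher than in YAP3d, and 3 among 7 genes higher than in WT. UMI counts were summed per library and fitted over all 3 groups with edgeR, and 4920 genes passed the filter on low counts. YAP7d minus YAP3d gave 139 genes (2.83%) past the adjusted p of 0.05, of which 112 (2.28% of those tested) were higher and 27 (0.549%) were lower in YAP7d, and 10 genes with cells thinned to 1500 UMIs. YAP7d minus WT gave 9 genes (0.183%), 7 of them (0.142%) higher and 2 (0.0407%) lower, with 577 genes at an unadjusted p below 0.05. By edgeR that count was 0 without WT replicate 1, WT replicate 2 or YAP7d replicate 2 (493, 429 and 506 genes at an unadjusted p below 0.05) and 1 without YAP7d replicate 1, and by DESeq2 on all libraries it was 48. With a term for the 3 libraries over 1000 cells, chosen after seeing the data, it was 172, 20 of them proliferation genes, and with a term for libraries over 100 CPM of Gm10709 it was 1, with 0 proliferation genes. It was 24, 35 and 92 when YAP7d replicate 3, YAP3d replicate 2 or YAP3d replicate 4 was left out. YAP3d minus WT gave 2 genes (0.0407%), both lower, with 116 at an unadjusted p below 0.05. Each group serves 2 of these comparisons, so the 3 counts are not independent.

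Of 31 listed proliferation genes 29 were tested. All 29 had a positive log2 fold change between YAP7d and YAP3d, 25 of them past the threshold, with a median of 1.997 beside -0.01 over all genes tested. With cells thinned to 1500 UMIs, 5 of the list were still tested, all 5 positive and 3 past the threshold. Against WT, 29 of 29 were positive and 3 passed (Stmn1, Cks1b and Birc5), with a median of 1.75 beside 0.02. Between YAP3d and WT the median was -0.58 beside 0.01, and Stmn1 alone passed. Stmn1, which encodes the microtubule regulator stathmin (chromosome 4, 134468320 to 134473843), reached 142 and 141 CPM in WT, 9.80, 36.5, 10.02 and 25.2 CPM in YAP3d and 616, 575 and 422 CPM in YAP7d. The 3 groups did not overlap, which held for 15% of all tested genes between YAP7d and YAP3d (7.76% higher and 7.24% lower), for 25.9% between YAP7d and WT (12.6% and 13.3%) and for 10% between YAP3d and WT (4.67% and 5.35%). The log2 fold change was 4.61 ± 0.30 (SE, edgeR adjusted p = 8.04e-07) for YAP7d minus YAP3d, 1.91 ± 0.31 (adjusted p = 0.0192) for YAP7d minus WT and -2.70 ± 0.33 (adjusted p = 0.00349) for YAP3d minus WT. The call for YAP3d minus WT was lost with cells thinned to 1500 UMIs and with Cd79a-positive cells kept.

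Birc5 (survivin, of the chromosomal passenger complex) stood at 21.2 and 34.9 CPM in WT, 0, 9.96, 6.68 and 5.82 CPM in YAP3d and 134, 249.8 and 101 CPM in YAP7d. Its level in YAP7d was above both other groups in every library, with a log2 fold change of 2.30 ± 0.42 over WT (edgeR adjusted p = 0.042). 2810417H13Rik, the gene of the PCNA-binding factor PCLAF, stood at 84.8 and 51.1 CPM in WT, 6.54, 16.6, 10.02 and 10.7 CPM in YAP3d and 314, 283 and 172 CPM in YAP7d, and passed in all 3 comparisons, rising in YAP7d over WT by 1.96 and falling from WT to YAP3d with -2.54 on the log2 scale. Cks1b, a cyclin-dependent kinase subunit, and Spc24, of the kinetochore, rose over WT with log2 fold changes of 1.92 ± 0.35 and 3.02 ± 0.55. The proliferation marker Mki67 stood at 30.3 and 19.95 CPM in WT, 6.54, 16.6, 53.4 and 6.79 CPM in YAP3d and 175, 341 and 68.1 CPM in YAP7d, which passed against YAP3d (log2 fold change 3.33 ± 0.58, edgeR adjusted p = 0.00473) but not against WT (2.87 ± 0.67, adjusted p = 0.0739). Top2a, topoisomerase II alpha, stood at 42.4 and 29.9 CPM in WT, 3.27, 49.8, 66.8 and 11.6 CPM in YAP3d and 291, 391 and 120.1 CPM in YAP7d, and likewise passed only against YAP3d (adjusted p = 0.00427; against WT 0.0739).

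Histone genes, taken by their symbols after the values were seen, were counted as well. Of 13 tested between YAP7d and YAP3d, 12 had a positive log2 fold change (median 1.60), 9 passed as higher, 8 of them outside the proliferation list, and 0 passed as lower. Of all 4920 genes, 2390 were positive there and 2.28% passed as higher. Hist1h1b, a linker histone made during DNA replication, reached 24.2 and 12.47 CPM in WT, 0, 0, 0 and 1.94 CPM in YAP3d and 337, 316 and 61.6 CPM in YAP7d. Since YAP3d held 2 UMIs of it over its 4 libraries, no fold change is given there, and over WT the log2 fold change was 3.75 ± 0.61 (edgeR adjusted p = 0.0192). Cenpf, Cdca3, Hist1h2ap, Ccnb2, Ube2c and Nusap1 were the other named genes that rose most over YAP3d.

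**Figure D3:**
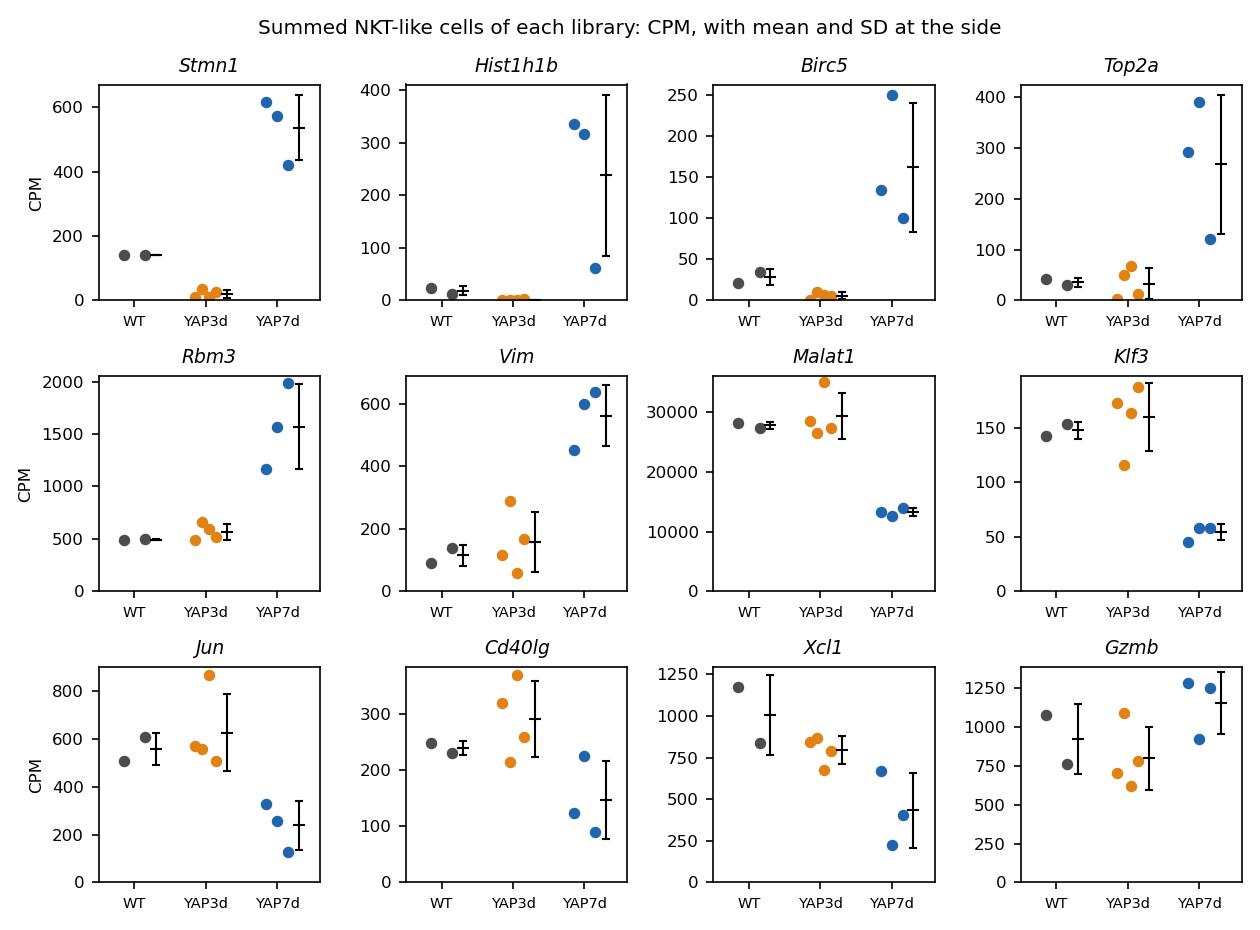
CPM of 12 genes in the summed members of each library (1 point per library, linear axes from 0), with the group mean and SD beside the points (n = 2 WT, 4 YAP3d and 3 YAP7d). Stmn1, Birc5 and Rbm3 are highest and Malat1 and Klf3 lowest in all 3 YAP7d libraries, whereas Gzmb overlaps between the groups.

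Because these genes moved together, the stretch directly before their start sites was read for letters known from genes transcribed late in the cell cycle: CCAAT, the box bound by NF-Y, and TTTGAA or TTTAAA, the core of the cell-cycle homology region (CHR) bound by the DREAM and MuvB complexes. Promoters came from RefSeq (GRCm38.p6), 150 bases upstream of the first listed start, and 23 of the 25 passing proliferation genes matched. Both strands were searched, and a window was counted once whatever its number of matches. The CHR cores differ by 1 base and neither contains the CCAAT box. CCAAT was in 17 of 23 windows (73.9%), against 29.1% of the 3823 tested genes with a promoter and 25.3% of all 27025 promoters. TTTGAA was in 7 (30.4%), against 5.68% and 9.24%, and TTTAAA in 2 (8.70%), against 4.08% and 6.79%. CCAAT together with either of the last 2 was in 8 (34.8%), against 2.85% and 3.74%. A match is only a run of letters, and no factor was measured. The windows of 5 mitotic genes of the list are shown as examples with and without matches: the topoisomerase, the kinase that drives mitosis, one of its cyclins, the ubiquitin-conjugating enzyme that helps to end it, and survivin. The last, like that of the mitotic gene Nusap1, holds no match of any of the 3 motifs, and 6 of the 23 windows hold no CCAAT. Capitals mark the matches of the 3 motifs on either strand, so that ATTGG is the CCAAT box read from the opposite strand, and TTCAAA is likewise the first of the CHR cores. Each window reads 5' to 3' on the gene's strand and ends 1 base before the start that the RefSeq promoter table lists.
Top2a (chr11:99024190-99024339, minus strand): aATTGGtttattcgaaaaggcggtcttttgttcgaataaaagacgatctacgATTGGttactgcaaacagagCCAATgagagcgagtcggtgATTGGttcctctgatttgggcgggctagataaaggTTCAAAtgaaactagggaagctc
Cdk1 (chr10:69352913-69353062, minus strand): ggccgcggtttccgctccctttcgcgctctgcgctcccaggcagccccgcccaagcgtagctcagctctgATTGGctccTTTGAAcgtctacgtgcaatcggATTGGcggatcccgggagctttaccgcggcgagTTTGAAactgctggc
Ccnb2 (chr9:70421555-70421704, minus strand): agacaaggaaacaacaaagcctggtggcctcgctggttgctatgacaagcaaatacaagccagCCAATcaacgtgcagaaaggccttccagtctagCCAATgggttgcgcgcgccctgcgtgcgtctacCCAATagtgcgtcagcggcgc
Ube2c (chr2:164769779-164769928, plus strand): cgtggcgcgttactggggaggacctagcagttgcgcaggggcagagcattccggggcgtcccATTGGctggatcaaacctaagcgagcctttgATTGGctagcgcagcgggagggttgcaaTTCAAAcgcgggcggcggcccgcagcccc
Birc5 (chr11:117849087-117849236, plus strand): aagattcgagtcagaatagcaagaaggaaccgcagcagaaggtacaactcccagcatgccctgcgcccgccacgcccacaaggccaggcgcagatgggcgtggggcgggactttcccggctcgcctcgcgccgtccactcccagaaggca
Top2a had 4 CCAAT matches and 1 of TTTGAA, Cdk1 had 2 of each, Ccnb2 had 3 of CCAAT alone, Ube2c had 2 and 1, and Birc5 had 0. In the members, Cdk1 reached 3.03 and 17.5 CPM in WT, 0, 9.96, 6.68 and 2.91 CPM in YAP3d and 58.3, 91.6 and 32.4 CPM in YAP7d, Ccnb2 reached 9.09 and 19.95 CPM in WT, 0, 0, 0 and 4.85 CPM in YAP3d and 65.9, 99.9 and 26.0 CPM in YAP7d, and Ube2c reached 3.03 and 36.2 CPM in WT, 3.27, 3.32, 3.34 and 10.7 CPM in YAP3d and 101, 249.8 and 104 CPM in YAP7d.

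The cell-division transcripts sat in a minority of members. Cells with 2 or more UMIs over 8 such genes (Mki67, Top2a, Birc5, Cdk1, Ccnb2, Cdca3, Nusap1 and Ube2c) were counted. All 8 are among the 25 proliferation genes called higher in YAP7d than in YAP3d. The cut was also chosen after its values were seen, so no test is given. They numbered 2 of 69 and 4 of 165 members in WT, 0 of 71, 2 of 62, 4 of 68 and 3 of 222 in YAP3d, and 13 of 51, 6 of 21 and 6 of 44 in YAP7d. In shares this is 2.90% and 2.42% in WT, 0% to 5.88% in YAP3d, and 25.5%, 28.6% and 13.6% in YAP7d, so YAP7d held 25 of the 40 such members among 116 of the 773 cells. These cells had a median of 5.5 UMIs of the entry genes in WT, 6 in YAP3d and 3 in YAP7d (5, 2 and 1.5 in its libraries), where 1 UMI was enough to enter. With 2 or more entry UMIs required, 21 proliferation genes passed against YAP3d and 0 against WT. With each cell thinned to 1500 UMIs the shares were 1.54% and 1.82%, 0% to 1.61%, and 15.7%, 23.8% and 9.09%. In the other Cd8b1-negative T cells of YAP7d the unthinned shares were 6.25%, 4.35% and 12.3%, and in CD8 T cells 22.7%, 0% and 6.41%. The YAP7d shares of members were above those of the other Cd8b1-negative T cells in each of the 3 libraries, though in YAP7d replicate 3 by only 6 of 44 against 9 of 73 cells.

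Members with 2 or more such UMIs were compared with the rest at 1500 UMIs per cell, over all libraries (39 and 718 cells), again as a description. Stmn1 was present in 66.7% of them and 3.34% of the rest. Klrb1c was present in 7.69% against 29.2%, Tbx21 in 5.13% against 14.9% and Xcl1 in 28.2% against 48.7%, while Gzmb was present in 48.7% against 34.1%. These pooled shares mix the groups, because 25 of these 40 cells but 91 of the other 733 came from YAP7d. Within YAP7d (25 and 91 cells) Stmn1 was present in 76.0% against 14.3%, so it was not confined to these cells. The rest of the members held it in 2.23% in WT and 1.49% in YAP3d. Also within YAP7d, Klrb1c was present in 4.0% against 20.9%, Tbx21 in 4.0% against 10.99%, Xcl1 in 28.0% against 37.4% and Gzmb in 56.0% against 38.5%. When these 40 cells were left out, edgeR called 0 genes between YAP7d and WT (411 at an unadjusted p below 0.05), 0 between YAP3d and WT (82), and 5 between YAP7d and YAP3d: Ly6c2, Malat1, Rbm3, Cd5l and Ifi27l2a. The genes behind the cut were themselves called between YAP7d and YAP3d, so a loss of calls was built in and tests nothing.

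**Figure D4:**
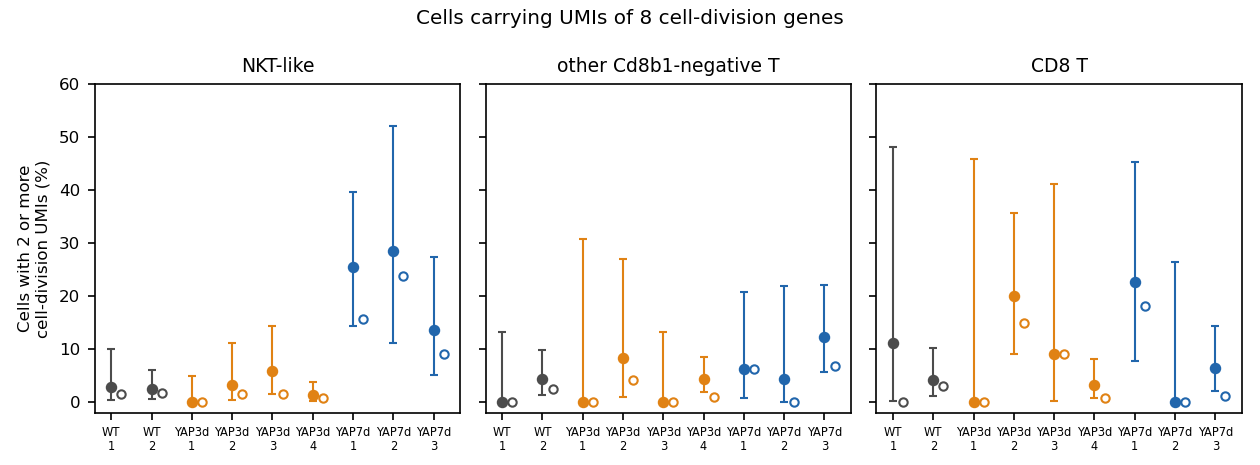
Percent of cells with 2 or more UMIs of 8 cell-division genes in each library, for members, other Cd8b1-negative T cells and CD8 T cells. Filled points are unthinned, with 95% Clopper-Pearson intervals (counting error only), and open points are from cells thinned to 1500 UMIs; members of YAP7d reach 13.6% to 28.6%, and members of WT and YAP3d stay at or below 5.88%.

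Some transcripts outside the cell cycle differed as well. Malat1, a nuclear long non-coding RNA (chromosome 19, 5795690 to 5802672), fell in YAP7d. It stood at 28212 and 27372 CPM in WT, 28414, 26534, 34979 and 27395 CPM in YAP3d and 13256, 12623 and 14024 CPM in YAP7d. Each YAP7d library was below every WT and YAP3d library, and the log2 fold change was -1.05 ± 0.16 against WT (edgeR adjusted p = 0.0192) and -1.11 ± 0.14 against YAP3d (adjusted p = 0.000674). Rbm3, an RNA-binding protein known for its induction by cold (chromosome X, 8138975 to 8145880), rose to 1166, 1565 and 1983 CPM in YAP7d from 488 and 496 CPM in WT and 493, 661, 598 and 515 CPM in YAP3d, with log2 fold changes of 1.69 ± 0.26 (edgeR adjusted p = 0.0192) and 1.52 ± 0.20 (adjusted p = 0.000825). In the other Cd8b1-negative T cells Rbm3 stood at 353 and 478 CPM in WT, 386, 597, 355 and 496 CPM in YAP3d and 835, 1223 and 1749 CPM in YAP7d, and the difference between the cell sets in the YAP7d minus WT change was 0.07 ± 0.29 (adjusted p = 1.0). Gm11808 fell against WT with -1.60 ± 0.28 (adjusted p = 0.0367).

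Vim, the intermediate filament vimentin, stood at 90.9 and 139.7 CPM in WT, 118, 289, 60.1 and 166 CPM in YAP3d and 451, 599.5 and 636 CPM in YAP7d, a rise over YAP3d of 1.85 ± 0.35 (SE, log2; edgeR adjusted p = 0.00937) that missed the threshold against WT (adjusted p = 0.0533). Ly6c2, a surface protein of activated and memory T cells as well as of monocytes, stood at 515 and 747 CPM in WT, 392, 455, 611 and 372 CPM in YAP3d and 1343, 1332 and 915 CPM in YAP7d, with a log2 fold change of 1.41 ± 0.20 over YAP3d (edgeR adjusted p = 0.00151). Cd5l, a secreted protein of Kupffer cells, also rose, to 48.1, 74.9 and 120.1 CPM in YAP7d from 6.54, 3.32, 3.34 and 13.6 CPM in YAP3d. Macrophage markers summed to 267 to 969 CPM in the members of WT, 124 to 1421 CPM in YAP3d and 324 to 1278 CPM in YAP7d, with 3 of 12 tested and Cd5l alone past the threshold. The monocyte and neutrophil markers, which include Ly6c2, summed to 1151 to 1539, 1162 to 1404 and 2233 to 2346 CPM, with 1 of 5 tested past it. The part of RNA from other cells in these 2 genes was not tested.

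Among genes past the threshold, at 50 CPM or more in a group and without overlap between the groups, those that fell most between YAP3d and YAP7d were Klf3, Rhoc, Gm6133, Jun, Dtx1, Il21r, Gm11808, Malat1, Abi3 and Eif4a2. Klf3, a Krüppel-like repressor, stood at 142 and 153 CPM in WT, 173, 116, 164 and 187 CPM in YAP3d and 45.6, 58.3 and 58.4 CPM in YAP7d, a log2 fold change of -1.59 ± 0.27 (edgeR adjusted p = 0.00434). Il21r, the interleukin 21 receptor, stood at 173 and 182 CPM in WT, 235, 236, 234 and 193 CPM in YAP3d and 93.8, 108 and 77.9 CPM in YAP7d, and Jun, of the AP-1 factor, at 509 and 606 CPM in WT, 572, 558, 865 and 508 CPM in YAP3d and 329, 258 and 127 CPM in YAP7d. For Klf3, Il21r and Jun each YAP7d library was below every YAP3d and WT library. Against WT, Klf3, Gzmc and Kctd12 fell short of the threshold (adjusted p = 0.0533, 0.0533 and 0.0663). Gzmc, a granzyme, stood at 127 and 172 CPM in WT, 154, 66.4, 13.4 and 37.9 CPM in YAP3d and 15.2, 16.7 and 12.98 CPM in YAP7d. Between YAP3d and WT the named genes that did not pass were Ccnt1, Wdr26, Cast, Tox4 and Slc25a11 on the higher side and Hist1h2ap, Tuba1b and Gm6563 on the lower side.

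Few effector genes of NKT cells passed the test, and the fold changes of the NKT1-type and cytokine lists in YAP7d were negative. Of 13 tested NKT1-type genes, 0 were positive between YAP7d and YAP3d (median -0.52) and 0 between YAP7d and WT (median -0.46), beside 2390 and 2560 of all 4920 genes, of which 0.549% and 0.0407% were called lower. The only one past the threshold was Cd160, a receptor of natural killer and NKT cells, against YAP3d (373 and 352 CPM in WT, 402, 422, 371 and 314 CPM in YAP3d and 279, 117 and 146 CPM in YAP7d; log2 fold change -0.96 ± 0.24, edgeR adjusted p = 0.0408). Of 10 tested cytokines and TNF ligands, 0 were positive in either comparison (medians -0.76 and -0.62), and 2 passed against YAP3d. Both lists hold Ifng and Fasl, so they are not separate. Cd40lg stood at 248 and 231 CPM in WT, 320.2, 216, 371 and 260.1 CPM in YAP3d and 124, 225 and 90.9 CPM in YAP7d (log2 fold change -1.08 ± 0.26 against YAP3d, adjusted p = 0.0417; -0.82 ± 0.30 against WT, adjusted p = 0.263), and its YAP7d range overlapped that of YAP3d. The calls of Cd160 and Cd40lg were lost with cells thinned to 1500 UMIs (-1.53 and -0.53) and without any of several single libraries, among them YAP7d replicate 3 (-0.84 and -0.87). Ltb, lymphotoxin beta, stood at 915 and 995 CPM in WT, 1075, 856, 985 and 899.7 CPM in YAP3d and 532, 641 and 461 CPM in YAP7d, with no overlap between YAP7d and the other groups, and passed against YAP3d (adjusted p = 0.0129) but not against WT (adjusted p = 0.0739). The call of Ltb was lost without YAP3d replicate 1 or YAP7d replicate 1 (-0.76 and -0.75). The list of the interleukin 17-making NKT17 type had 4 genes tested of 13. All 4 were positive between YAP7d and WT (median 0.89) and between YAP3d and WT (median 1.12), and 1 between YAP7d and YAP3d (median -0.26), and edgeR called 0 in any of these (0, 2 and 0 at an unadjusted p below 0.05).

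Xcl1 stood at 1176 and 837 CPM in WT, 846, 869.6, 678 and 787 CPM in YAP3d and 672, 225 and 406 CPM in YAP7d, lower in each YAP7d library than in any other, with a log2 fold change of -1.15 ± 0.30 against WT that did not pass (edgeR adjusted p = 0.101). Ifng stood at 1082 and 429 CPM in WT, 438, 269, 645 and 308 CPM in YAP3d and 177, 366 and 266 CPM in YAP7d, and WT replicate 1 lay far above all others (adjusted p = 0.107 for YAP7d minus WT). Its direction turned when cells were thinned to 1500 UMIs, to 0.071 against WT and 1.12 against YAP3d. Klrb1c stood at 306 and 315 CPM in WT, 255, 415, 257 and 254 CPM in YAP3d and 104, 249.8 and 204 CPM in YAP7d, lower in each YAP7d library than in any other without passing (adjusted p = 0.316 against WT).

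Of 8 tested cytotoxic genes, 0 passed in any comparison between groups of members (edgeR; 2 at an unadjusted p below 0.05 against YAP3d and 0 in the others). Gzmb stood at 1082 and 764 CPM in WT, 706, 1089, 625 and 781 CPM in YAP3d and 1282, 924 and 1256 CPM in YAP7d, with the groups overlapping, and Nkg7 at 2136 and 2031 CPM in WT, 2327, 2343, 1773 and 1800.3 CPM in YAP3d and 1731, 1657 and 1499 CPM in YAP7d, lower in each YAP7d library than in any other. Of 16 tested lineage transcription factors, 2 were positive between YAP7d and YAP3d (median -0.48) and 5 between YAP7d and WT (median -0.26), and edgeR called 0 in either comparison (3 and 2 at an unadjusted p below 0.05). Among them YAP7d and YAP3d overlapped for both Tbx21 and Gata3, with Tbx21 at 99.99 and 121 CPM in WT, 88.2, 66.4, 96.8 and 113 CPM in YAP3d and 93.8, 66.6 and 74.6 CPM in YAP7d, and Gata3 at 97.0 and 129.7 CPM in WT, 144, 89.6, 117 and 102 CPM in YAP3d and 81.1, 133 and 68.1 CPM in YAP7d. The next genes also did not pass between groups of members. Icos stood at 258 and 274 CPM in WT, 402, 202, 170.3 and 369 CPM in YAP3d and 147, 149.9 and 240.1 CPM in YAP7d, Il2rb at 439 and 516 CPM in WT, 605, 425, 384 and 465 CPM in YAP3d and 365, 308 and 357 CPM in YAP7d, and Ccl5, a chemokine stored by effector cells, at 4263 and 5109 CPM in WT, 4555, 5539.9, 3907 and 5019.5 CPM in YAP3d and 3142, 2881 and 5607 CPM in YAP7d. Klf2, which drives exit from tissue through S1pr1, stood at 151 and 539.9 CPM in WT, 304, 329, 397 and 492 CPM in YAP3d and 324, 241 and 321 CPM in YAP7d, the early activation marker Cd69 at 167 and 254 CPM in WT, 225, 285, 351 and 114 CPM in YAP3d and 226, 241 and 143 CPM in YAP7d, and Tgfb1 at 197 and 207 CPM in WT, 186, 193, 184 and 254 CPM in YAP3d and 159.7, 216 and 175 CPM in YAP7d. Pdcd1, Ctla4, Lag3 and Tigit, which encode inhibitory receptors, were detected in 4.14%, 6.86%, 3.88% and 0.517% of members over all libraries, in 1.57%, 9.78%, 4.11% and 1.17% of the other Cd8b1-negative T cells and in 0.199%, 1.93%, 2.72% and 0.0664% of B cells (median 4873, 4353 and 3682 UMIs per cell). Between libraries the members' shares ran from 1.41% to 11.4% for Pdcd1 and from 0% to 15.9% for Ctla4.

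Immediate early genes, which switch on within minutes of a stimulus and also during tissue digestion, had mostly negative fold changes in YAP7d, but few passed. Against YAP3d 1 of 21 tested was positive (median -0.77), beside 2390 of all 4920 genes. There 3 were called lower (Jun, Btg2 and Dusp1), beside 0.549% of all genes. Against WT 1 of 21 was positive (median -0.58), beside 2560 of all 4920 genes. There 0 passed, beside 0.0407% of all genes called lower, with 8 at an unadjusted p below 0.05. Dusp1, a phosphatase that ends MAP kinase signalling, stood at 773 and 1362 CPM in WT, 1173, 1046, 955 and 1116 CPM in YAP3d and 613, 558 and 574 CPM in YAP7d. Their summed level was 9759 and 13930 CPM in WT, 10493 to 14059 CPM in YAP3d and 6272 to 8306 CPM in YAP7d. Rgs1, which dampens chemokine receptor signalling, fell as well, at 903 and 941 CPM in WT, 1614, 1265, 771 and 829 CPM in YAP3d and 684, 383 and 548 CPM in YAP7d (log2 fold change -0.98 ± 0.25 against YAP3d, edgeR adjusted p = 0.048). The calls of Dusp1 and Rgs1 were lost without any of several single libraries, among them YAP7d replicate 2 (-0.79 for both). Fos stood at 467 and 719 CPM in WT, 310.4, 349, 434 and 558 CPM in YAP3d and 200.2, 167 and 279 CPM in YAP7d, and Nr4a1, a reporter of receptor signalling, at 81.8 and 156 CPM in WT, 75.2, 113, 96.8 and 339.7 CPM in YAP3d and 55.8, 58.3 and 195 CPM in YAP7d, with neither past the threshold. The heat shock gene Hspa1a varied within each group, at 78.8 and 1020.0 CPM in WT, 281, 229, 1035 and 197 CPM in YAP3d and 466, 0 and 3.24 CPM in YAP7d.

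Between YAP7d and YAP3d 2390 of all 4920 genes were positive and 2.28% were called higher. Of 20 tested interferon-stimulated genes 17 were positive there (median 0.46), of which Ifi27l2a alone passed, at 645 and 934 CPM in WT, 499.98, 657, 371 and 552 CPM in YAP3d and 1716, 1024 and 1058 CPM in YAP7d. Of 12 tested glycolytic genes 8 were positive (median 0.42) and 2 passed, Gapdh at 864 and 848 CPM in WT, 611, 740.2, 671 and 815 CPM in YAP3d and 1313, 1066 and 1469.8 CPM in YAP7d and Tpi1, triosephosphate isomerase, at 133 and 92.3 CPM in WT, 85.0, 113, 70.1 and 87.3 CPM in YAP3d and 231, 241 and 169 CPM in YAP7d. The call of Gapdh was lost without YAP3d replicate 1 or 3 or YAP7d replicate 1 or 3 (0.70 to 0.92). Against WT, 11 of the 20 interferon-stimulated genes (median 0.069) and 7 of the 12 glycolytic genes (median 0.13) were positive, and between YAP3d and WT 3 (median -0.38) and 4 (median -0.091). In YAP7d against WT, edgeR called 0 genes of either list (2 interferon-stimulated and 4 glycolytic genes at an unadjusted p below 0.05). Of 18 tested genes of the T-cell receptor complex and its signalling, 0 passed in either comparison (edgeR; 1 against YAP3d and 0 against WT at an unadjusted p below 0.05), with medians of -0.23 and -0.11. Lists of cytotoxic effectors (8 tested), chemokines (6) and checkpoint and costimulatory receptors (10) had 0 genes past the threshold in either comparison by edgeR, with 2, 2 and 1 at an unadjusted p below 0.05 against YAP3d and 0, 2 and 2 against WT.

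**Figure D5:**
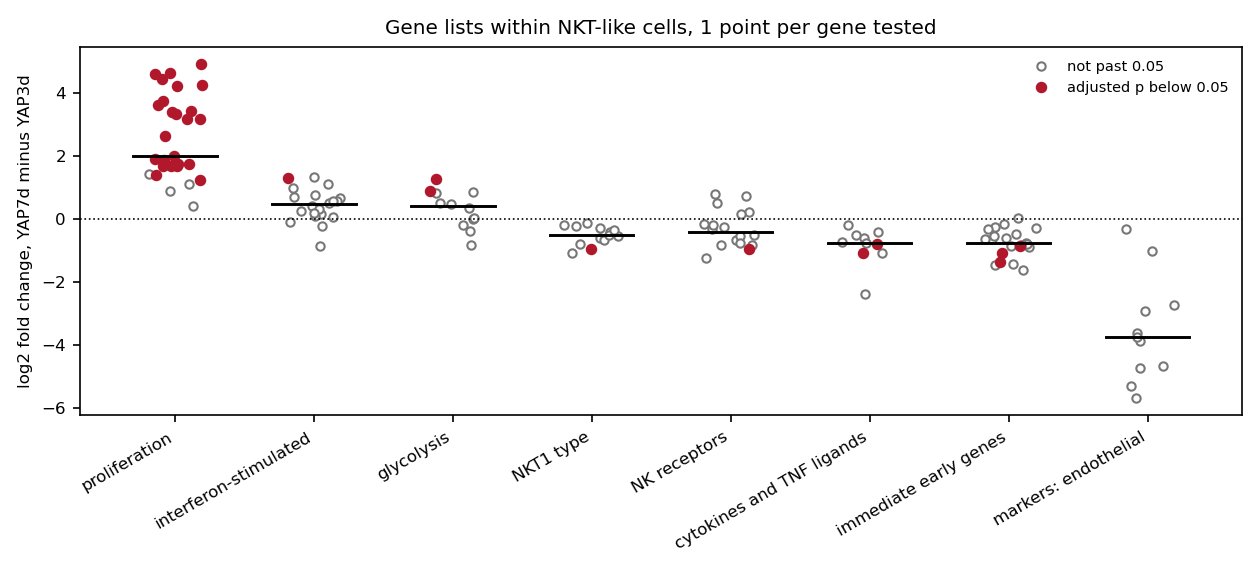
Log2 fold change from YAP3d to YAP7d of each tested gene of 8 lists within the members, with the list median as a bar, the median of all tested genes as a dotted line and genes at an adjusted p below 0.05 filled. All 29 proliferation genes lie above 0 and 25 are filled, whereas all 13 NKT1-type genes lie below 0 with 1 filled.

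Transcripts listed as markers of sinusoidal endothelial cells were also counted in the members. All 11 tested endothelial markers of 12 had negative log2 fold changes in YAP7d against WT (median -4.54) and against YAP3d (median -3.75), 0 of them past the adjusted threshold and 10 at an unadjusted p below 0.05 in each comparison. The 12 markers, of which 0 were at 0 in every library of a group, summed to 558 and 970 CPM in WT, 116 to 1027 CPM in YAP3d and 73.5 to 108 CPM in YAP7d. In the other Cd8b1-negative T cells they summed to 1968 and 3252, 142 to 2146 and 118 to 182 CPM. The hepatocyte markers summed to 60.6 and 68.6, 53.1 to 98.0 and 66.6 to 479 CPM in the members, with YAP7d replicate 1 highest. Natural killer and type 1 innate lymphoid markers summed to 2366 and 2513, 928 to 2845 and 383 to 2842 CPM, a range that crossed the groups. The source of these transcripts, and their part in the other differences between groups, was not tested. Yap1 itself was at 0 to 5.66 CPM in the members, with a UMI in 3 of 773 cells.

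Whether a change was particular to the members was tested as the interaction of cell set and group against the other Cd8b1-negative T cells. Of 5680 genes, 8 (0.141%) passed for YAP7d minus WT, 5 of them (0.088%) with a higher change in members and 3 (0.0528%) with a lower one, 2 (0.0352%) for YAP3d minus WT and 12 (0.211%) for YAP7d minus YAP3d, 10 of them (0.176%) higher and 2 (0.0352%) lower. Stmn1 rose more in members between YAP3d and YAP7d, with a difference of 2.91 ± 0.43 on the log2 scale (edgeR adjusted p = 0.000108), the other Cd8b1-negative T cells standing at 118 and 132 CPM in WT, 0, 199, 40.5 and 56.6 CPM in YAP3d and 266, 70.7 and 242 CPM in YAP7d. Vim differed by 1.75 ± 0.32 (adjusted p = 0.00333), and in the other cells, at 107 and 374 CPM in WT, 435, 691, 213 and 476 CPM in YAP3d and 405, 192 and 866 CPM in YAP7d, the groups overlapped. Cd160 fell in members against YAP3d and had a lower change than in the other cells, with a difference of -1.60 ± 0.33 against YAP3d (adjusted p = 0.0153) and -1.72 ± 0.38 against WT (adjusted p = 0.0478), and Klrc1, an NKG2 receptor gene, had a lower change against YAP3d (-2.23 ± 0.51, adjusted p = 0.0468). In the other cells Cd160 stood at 53.5 and 86.3 CPM in WT, 145, 94.2, 70.9 and 69.1 CPM in YAP3d and 169, 101 and 107 CPM in YAP7d, highest in YAP7d replicate 1, and Klrc1 at 0 and 104 CPM in WT, 169, 41.9, 20.3 and 49.8 CPM in YAP3d and 182, 20.2 and 101 CPM in YAP7d. Klrc1 in the members stood at 224 and 213 CPM in WT, 258, 345, 207 and 249.4 CPM in YAP3d and 213, 142 and 45.4 CPM in YAP7d and did not pass there (log2 fold change -0.97 ± 0.33 against YAP3d, adjusted p = 0.136). The call of Cd160 against YAP3d was lost without YAP3d replicate 4 or YAP7d replicate 1 or 3 (-1.72 to -1.54) and against WT without either WT library, YAP3d replicate 2 or any YAP7d library (-2.26 to -1.55), and that of Klrc1 without YAP3d replicate 2, 3 or 4 or YAP7d replicate 1 or 3 (-2.37 to -1.61). Mki67 and Top2a did not pass this test (differences of 0.65 ± 0.90 and 1.25 ± 0.70, adjusted p = 1.0 and 1.0), nor did Malat1 (-0.61 ± 0.21, adjusted p = 0.584). In data simulated for YAP7d minus WT, without further differences between libraries, this test recovered 32.5% of genes changed by a log2 fold of 2. The other comparisons were not simulated, and a difference that missed the threshold is not shown to be absent.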

How the data were processed

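Cells from mouse livers were profiled with droplet-based single-cell RNA-seq, and per the labels the authors used Cell Ranger and Seurat 2 with the mm10 build. The deposited table held whole-number UMI counts per gene and cell, not normalized, and each cell's library was taken from its column name. Genes for the T-cell receptor and immunoglobulin constant regions were not analysed here. The members and the gene lists were chosen with earlier results of these data known. UMI counts of the members were summed per library and tested with edgeR 4.0.16 (quasi-likelihood, TMM, filterByExpr, R 4.3.3) over all 3 groups, with Benjamini-Hochberg adjustment over all genes tested. The same test with the library as a block compared cell sets, and an interaction term compared their group differences. DESeq2 1.42.0 was an alternative. CPM are summed UMIs scaled to a common total of 1e6 over the same cells. Shares were compared by exact two-sided permutation tests over libraries, and thinning drew 1500 UMIs per cell without replacement, leaving out 16 shallower members. Libraries held 1314878 to 25056881 UMIs. Clopper-Pearson 95% intervals and limits for counts of 0 (3 counts) cover counting error only. Doublets called by Scrublet (scanpy 1.11.5) were kept and left out as an alternative. Named genes were, in each comparison, at most 10 rises and 10 falls by fold change among genes past an adjusted p of 0.05, at 50 CPM or more in a group and without overlap between the groups (between cell sets, in 1 direction in every library), leaving out the entry genes and haemoglobin, immunoglobulin, ribosomal and mitochondrial genes. Where fewer than 5 passed, the direction was filled to 5 by the smallest unadjusted p. Members of the lists and a fixed set of NKT-cell genes could be named besides. On simulated counts with 200 genes changed by a log2 fold of 2, edgeR recovered 82.5% for YAP7d minus WT (4864 genes, 3.51% of calls false), DESeq2 77%, the comparison with other Cd8b1-negative T cells 80.5% (3648 genes) and the interaction for YAP7d minus WT 32.5% (5341 genes). The simulated libraries all had the same mean profile and a fixed dispersion. The real libraries differed from each other, so recovery in them may be lower. Promoters and gene positions came from RefSeq (GRCm38.p6), which gave a position for 496 of 511 named or listed genes. Some genes that the rule names are not reported here.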

Additional observations from a re-analysis of the deposited data

Results flagged for a closer look

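In the 4 YAP3d libraries, 39 values were examined for 1 library standing far from the other 3. These were the members' shares of all cells and of T cells, and levels of named genes and of the fixed set in the members. Of the 39, 5 met Dixon's criterion, which chance meets in about 1 of 20 groups. Hspa1a stood at 1035 CPM in YAP3d replicate 3, with the nearest library at 281 CPM. Klrb1c stood at 415 CPM in replicate 2 (nearest 257 CPM). Replicate 4 accounted for the other 3, with Nr4a1 at 339.7 CPM (nearest 113 CPM), Tgfb1 at 254 CPM (nearest 193 CPM) and Il21r lowest at 193 CPM (nearest 234 CPM).

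The change between groups differed between members and the other Cd8b1-negative T cells for 8, 2 and 12 genes (edgeR interaction, adjusted p below 0.05, values on the log2 scale as members minus other cells). For YAP7d minus WT, the difference was negative for Gzmc (-4.18), Ccl5 (-1.92) and Cd160 (-1.72). Ccl5 in the other cells stood at 257 and 3036 CPM in WT, 5143, 3047, 2118 and 2138 CPM in YAP3d and 2402, 2778 and 5757 CPM in YAP7d, with WT replicate 1 far below the rest, and its difference was -0.68 without that library. The difference of Gzmc was -1.90 without YAP7d replicate 3 and -8.58 without WT replicate 2, and neither passed. Apoe (1.63), H2-Eb1 (2.73), Napsa (3.18) and Alb (4.33) had positive differences, and that of Napsa turned to -3.57 without WT replicate 2. H2-Eb1 in the other cells stood at 42.8 and 752 CPM in WT, 0, 31.4, 20.3 and 1195 CPM in YAP3d and 321, 20.2 and 199.7 CPM in YAP7d, with WT replicate 2 and YAP3d replicate 4 highest. For YAP3d minus WT, the neutrophil genes S100a8 (-4.54) and S100a9 (-4.20) differed. S100a8 in the other cells stood at 0 and 44.1 CPM in WT, 0, 41.9, 3435 and 1829.5 CPM in YAP3d and 6.05, 30.3 and 296 CPM in YAP7d, and in the members at 6.06 and 57.4 CPM in WT, 26.1, 33.2, 36.7 and 139 CPM in YAP3d and 25.3, 49.96 and 282 CPM in YAP7d.

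For YAP7d minus YAP3d, the difference was negative for Klrc1 (-2.23) and Cd160 (-1.60) and positive for Vim (1.75), Ass1 (1.79) and Stmn1 (2.91). The neutrophil genes Retnlg (3.22), S100a9 (4.17) and S100a8 (4.25) and the hepatocyte genes Alb (3.46), Bhmt (6.93) and Fabp1 (7.84) had positive differences as well, and that of Retnlg turned to -0.32 without YAP7d replicate 3. The fitted differences of Bhmt and Fabp1 rest on libraries at 0 and depend on the prior count, so they are no bounds. The part of RNA from neutrophils and hepatocytes in these differences was not tested.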

How the results depend on the processing

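The numbers of called genes depended on the processing more than the directions did, and the cause was not tested. For YAP7d minus WT, 9 genes became 48 with DESeq2, 279 without a filter on low counts, 2 with 2 or more UMIs of the entry genes, 5 with cells thinned to 1500 UMIs, 2 with Cd79a-positive cells kept, 0 without the 40 cells with 2 or more UMIs of 8 cell-division genes (cell-division cells from here on), 1 with a term for libraries over 100 CPM of Gm10709 and 172 with a term for the 3 libraries over 1000 cells. For YAP3d minus WT, 2 became 17, 1, 0, 0 and 0 under the same settings from no filter on, and 1 with either Gm10709 term. For YAP7d minus YAP3d, 139 became 408 without a filter, 10 thinned, 91 with Cd79a-positive cells, 5 without cell-division cells, 92 and 38 with the Gm10709 terms and 382 with the term for libraries over 1000 cells. The Cd79a, cell-division, 100 CPM and 1000-cell settings were chosen after seeing the data. The cell-division setting removes cells by genes that were called between YAP7d and YAP3d, so a loss of calls was built into it.

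Proliferation genes higher in YAP7d than in WT numbered 3, and 12 with DESeq2, 22 without a filter, 0 with 2 or more entry UMIs, 1 thinned, 0 with Cd79a-positive cells, 0 without cell-division cells, 1 and 0 with the Gm10709 terms and 20 with the 1000-cell term. Those lower in YAP3d than in WT numbered 3 without a filter and 0 thinned, with Cd79a-positive cells or without cell-division cells. Those higher in YAP7d than in YAP3d (25) numbered 3 thinned, 0 without cell-division cells and 16 with the 100 CPM term. Against the other Cd8b1-negative T cells 717 became 1178 without a filter and 224 thinned, against CD8 T cells 587 became 213 thinned, and the interactions became 26, 8 and 32 without a filter.

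Deviations of libraries with the same replicate number correlated between -0.17 and 0.23. Those of the WT libraries mirror each other around their mean (0.226 and -0.226 with YAP3d replicate 1), so this cannot tell whether the numbers pair the libraries. With the replicate block, YAP7d minus WT gave 131 genes, 20 of them proliferation genes, and YAP3d minus WT gave 26.

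Leaving out 1 library at a time gave 0 to 92 genes for YAP7d minus WT, 1 to 4 for YAP3d minus WT, 73 (without YAP7d replicate 1) to 165 for YAP7d minus YAP3d, 553 to 706 and 411 to 612 for the other T-cell sets, and 0 to 23, 2 to 17 and 6 to 32 for the interactions. Proliferation genes ranged from 0 to 18, 1 to 1 and 19 to 26. Shares of all cells ranged from -8.97 to -5.91 points (YAP7d minus WT), 0.4996 to 6.02 (YAP3d minus WT), -13.3 to -7.79 (YAP7d minus YAP3d) and 7.79 to 13.3 (3 groups). Shares of T cells ranged from -30.1 to -7.67, -6.88 to 15.6, -29.4 to -15.9 and 16.4 to 30.1 points, and YAP3d minus WT turned negative without WT replicate 2 (-6.88) or YAP3d replicate 1 (-3.03).

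Directions turned in thinned cells for Gzmb (-0.35 against WT, -0.67 against YAP3d), Ifng (0.071, 1.12) and Tuba1b (0.014, YAP3d minus WT), and in the interactions for Napsa without WT replicate 2 (-3.57, against at most 3.48 without another library) and Retnlg without YAP7d replicate 3 (-0.32, against at most 3.41). Of the other values for named genes, 1028 kept their direction and side of the threshold across settings, 123 lost the call and 31 gained it. With 1 library left out 1058 kept both, 151 lost the call and 14 gained it. YAP7d replicate 2 held 21 members, and WT had 2 libraries.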
